A study of Mus musculus with 2 samples.

Results

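The cluster of miR-183, miR-96 and miR-182 consists of 3 microRNA (miRNA) genes, Mir183, Mir96 and Mir182, that lie side by side on mouse chromosome 6. They are 3 of the 2202 miRNA genes counted in 2 small RNA libraries from heart. The genes were chosen by their counts, because each of them differed strongly between the libraries, so that difference is given as a description and is not tested. Both libraries come from heart tissue of adult male B6CASTF1/J mice, a hybrid strain of C57BL/6J and CAST/EiJ, at an age of 18 to 20 months. They form 1 group, with no treatment named. The labels number them as biological replicates 1 and 2 with separate biosamples, yet 1 donor record stands for both. Whether they are 2 animals is not known, so differences between animals and technical differences cannot be told apart.

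A miRNA is cut from a hairpin precursor and guides repression of messenger RNAs that pair with its seed, bases 2 to 8 of the mature strand. The 3 genes of the cluster are known to be made from a common primary transcript, which is abundant in sensory cells such as photoreceptors, inner ear hair cells and sensory neurons, and is also found in many epithelia and in activated lymphocytes. Changes in the seed of miR-96 cause hearing loss in mice and humans. The cluster is not among the miRNAs that define heart muscle.

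The mature sequences show what the 3 genes share. They are RefSeq sequences on GRCm38.p6, written 5′ to 3′ with the seed in capitals, and all 3 genes were matched by symbol. The first 3 are the strands from the 5′ side of each hairpin, which resemble each other.
miR-183-5p: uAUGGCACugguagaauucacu
miR-96-5p: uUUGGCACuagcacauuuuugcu
miR-182-5p: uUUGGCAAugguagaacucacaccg
miR-183-3p: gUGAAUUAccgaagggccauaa
miR-96-3p: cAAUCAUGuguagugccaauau
miR-182-3p: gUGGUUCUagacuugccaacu

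No seed was identical between the members, but the 5p seeds differed by 1 or 2 bases out of 7. Counting from the 5′ end of the mature strand, the seeds of miR-182-5p and miR-96-5p differed by A8C alone. Those of miR-96-5p and miR-183-5p differed by U2A alone, and those of miR-182-5p and miR-183-5p by U2A and A8C. Over the whole strand, miR-182-5p resembled miR-183-5p more than miR-96-5p, although in the seed it shared 5 of 7 bases with miR-183-5p and 6 with miR-96-5p. Set side by side from their 5′ ends, miR-182-5p had the same base as miR-183-5p at 18 of 22 positions and the same base as miR-96-5p at 12 of 23. The 3p seeds did not share such a core.

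Few other mouse miRNAs carried one of these seeds. Among the 1738 mature sequences of the RefSeq table, the seed of miR-96-5p was found outside the cluster in miR-1271-5p alone, whose gene is listed as Gm24195 and had 0 reads in both libraries. The seed of miR-96-3p was shared with miR-3475-5p, whose gene Mir3475 had 0 reads in replicate 1 and 3 in replicate 2. The seeds of the other 4 strands were found in no other sequence of that table.

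The hairpins are shown because reads were counted per hairpin and not per strand. Both mature strands are in capitals, and the order is that of transcription.
Mir183: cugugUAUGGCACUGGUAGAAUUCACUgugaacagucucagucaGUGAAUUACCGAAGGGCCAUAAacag
Mir96: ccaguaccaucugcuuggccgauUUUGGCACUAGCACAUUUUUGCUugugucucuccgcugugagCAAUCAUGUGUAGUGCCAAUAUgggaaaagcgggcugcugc
Mir182: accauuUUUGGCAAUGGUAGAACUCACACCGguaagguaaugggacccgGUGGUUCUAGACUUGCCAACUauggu

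On GRCm38 (mm10), Mir183 (ENSMUSG00000065619.2) spans 30169668 to 30169737 of chromosome 6, Mir96 (ENSMUSG00000065586.1) 30169446 to 30169551 and Mir182 (ENSMUSG00000076361.1) 30165918 to 30165992, all on the minus strand. Mir183 and Mir96 are 116 bases apart and Mir96 and Mir182 3453 bases, within a span of 3820 bases. In GENCODE M21 none of the 3 hairpins overlaps another annotated gene. The nearest genes are Rncr4, a noncoding RNA gene on the plus strand 3156 bases from the Mir183 end, and Nrf1, a protein-coding gene on the plus strand 12460 bases from the Mir182 end.

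**Figure D1:**
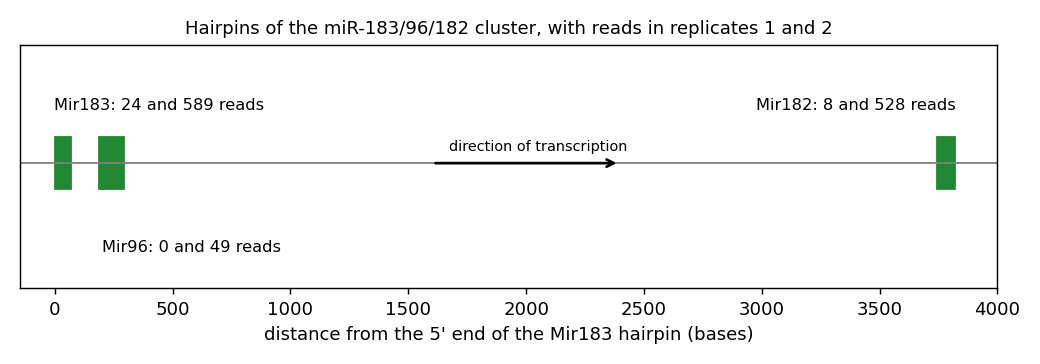
Positions of the 3 hairpins (green boxes, to scale) along the minus strand, with the distance in bases from the 5′ end of the Mir183 hairpin on the horizontal axis and each gene's reads in replicates 1 and 2 written beside it. Mir183 and Mir96 lie close together, and Mir182 lies 3453 bases beyond Mir96.

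The library of replicate 1 held 3037063 reads in miRNA genes and that of replicate 2 held 5284446. Levels are given as reads per 1000000 reads in miRNA genes (CPM). A count of 0 is taken to allow up to 3 reads, which is 0.988 CPM at the depth of replicate 1 and 0.568 CPM at that of replicate 2. All intervals are exact 95% intervals for counting error only, because no molecular identifiers are recorded. As a check of the tissue, the heart muscle miRNA Mir208a had 15744 and 48375 reads and Mir499 16882 and 28998 reads in replicates 1 and 2. All other genes of the heart muscle list used below had far fewer reads. Among them were Mir208b with 152 and 612, Mir1a-2 with 84 and 141 and Mir133a-1 with 8 and 31. Reads mapped to several places, 40.7% and 32.5% of all reads in replicates 1 and 2, were left out of these counts. Counts of genes with more than 1 copy, such as Mir1a-1 and Mir1a-2, may therefore be too low. The effect of that was not tested.

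Mir183, the first hairpin of the cluster in the direction of transcription, had 24 reads in replicate 1 and 589 in replicate 2. Scaled, the level was 7.90 CPM (5.06 to 11.8) in the first and 111 CPM (103 to 121) in the second. Mir182, the last hairpin, had 8 and 528 reads, or 2.63 CPM (1.14 to 5.19) and 99.9 CPM (91.6 to 109). Mir96, the middle hairpin, had 0 and 49 reads. At the floor of 3 reads its level in replicate 1 is at most 0.988 CPM, and the upper limit of its exact interval was 1.21 CPM. In replicate 2 the level was 9.27 CPM (6.86 to 12.3). Every member was higher in replicate 2, which is the difference by which the members were chosen. The means were 59.7 ± 73.2 CPM for Mir183 and 51.3 ± 68.8 CPM for Mir182 (SD, n = 2), so each SD exceeded its mean.

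**Figure D2:**
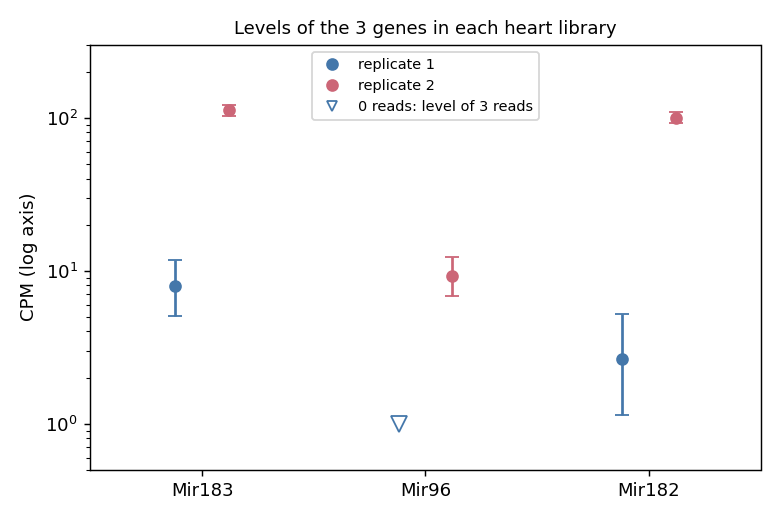
Level of each gene in CPM on a log axis, by library, with exact 95% counting intervals. The open triangle marks Mir96 in replicate 1, which had 0 reads, at the level of 3 reads. Every gene lies higher in replicate 2.

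In replicate 2 the cluster was in the upper part of the miRNAs that had reads, and in replicate 1 it was near the middle or undetected. Mir183 ranked 268 of 615 genes with reads in replicate 1 and 137 of 674 in replicate 2. Mir182 ranked 335 and 143, and Mir96 ranked 258 in replicate 2. The 3 genes summed to 32 reads in replicate 1, at 10.5 CPM (7.21 to 14.9), and to 1166 reads in replicate 2, at 221 CPM (208 to 234).

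The size of the library difference varied among the members. Relative to replicate 1, Mir182 was 37.9-fold higher in replicate 2 (19.1 to 88.3), a log2 ratio of 5.25. Mir183 was 14.1-fold higher (9.39 to 22.2), a log2 ratio of 3.82. Mir96 was at least 9.39-fold higher when 3 reads are taken for its count of 0 and its 49 reads are taken as they stand. With the counting error of both included, the lower limit of its exact interval was 7.35-fold, a log2 ratio of 2.88. Over all 424 miRNA genes whose 2 counts summed to 10 or more, the median log2 ratio was 0.07. Of these genes, 17.7% had a log2 ratio of at least 1 toward replicate 2 and 4.48% one of at least 3. Mir182 and Mir183 had a log2 ratio of at least 3, as did Mir96 at its floor of 3 reads (3.23) but not at its exact limit. This difference is what the members were chosen by. In bulk tissue a larger number of cells that make a miRNA and more of it per cell cannot be told apart.

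Ratios between members within a library do not depend on scaling. They are ratios of reads, and how evenly different miRNAs are captured in a library was not tested. The choice of members did not use these ratios, but it used the counts they are made of. The order was Mir183, Mir182, Mir96 in both libraries. In replicate 1, Mir182 had 0.333 reads per read of Mir183 (0.129 to 0.767), an interval below 1. In replicate 2 the ratio was 0.896 (0.796 to 1.01), so there Mir182 and Mir183 did not differ beyond counting error. The mean log2 ratio of Mir182 to Mir183 was -0.87 ± 1.01 (SD, n = 2). With 2 libraries an exact sign-flip test cannot go below p = 0.5, and none was run.

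The ratio of Mir182 to Mir183 was 2.69 times as high in replicate 2 as in replicate 1 (exact conditional interval 1.16 to 6.98). This interval lies above 1, but it is wide because it rests on the 8 reads of Mir182 in replicate 1. It also derives from the library difference that chose the members, so it is a description.

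Mir96 had the fewest reads of the members. In replicate 2, Mir183 exceeded Mir96 12.0-fold (8.97 to 16.4) and Mir182 exceeded it 10.8-fold (8.03 to 14.8). In replicate 1, where Mir96 had 0 reads, the exact one-sided 95% bounds were at least 7.52-fold for Mir183 over Mir96 and at least 2.20-fold for Mir182 over Mir96. At the ratio of Mir96 to Mir183 seen in replicate 2, the 24 reads of Mir183 in replicate 1 would correspond to 2.00 reads of Mir96. A lower proportion of Mir96 in replicate 1 was therefore not detectable at this depth, and the exact one-sided upper bound there was 0.133 reads of Mir96 per read of Mir183, against 0.0832 in replicate 2.

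As shares of the cluster's own reads, Mir183 made up 75% in replicate 1 (56.6 to 88.5) and 50.5% in replicate 2 (47.6 to 53.4). Mir182 made up 25% (11.5 to 43.4) and 45.3% (42.4 to 48.2). Mir96 took 0 of 32 reads in replicate 1, with an exact one-sided upper bound of 8.94%, and 4.20% in replicate 2 (3.12 to 5.52). Because Mir96 was a small share, a higher share of Mir182 meant a lower share of Mir183, although both genes were higher in replicate 2. The share of Mir96 in replicate 2 lies below the bound of replicate 1.

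**Figure D3:**
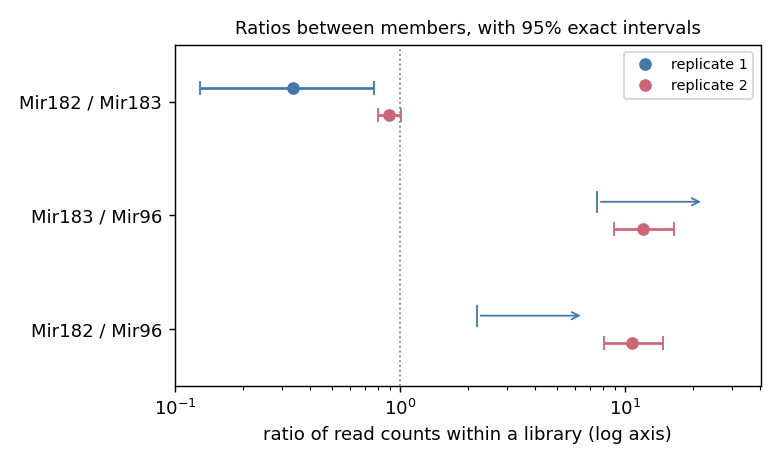
Ratio of read counts between members within each library, on a log axis, with exact 95% intervals. Arrows start at the exact one-sided bound where Mir96 had 0 reads, and their length has no meaning. The dotted line marks equal counts. Mir182 and Mir183 are close to equal in replicate 2, and both exceed Mir96.

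Few reads lay on the strand opposite the 3 genes. They were 1 and 0 at Mir182, 1 and 3 at Mir183, and 0 and 0 at Mir96 in replicates 1 and 2, none above the 3 that a count of 0 allows. The longest stretch that a member hairpin shared with any other annotated miRNA hairpin, on either strand, was 14 bases for Mir183 and 11 bases for Mir96 and Mir182. Copies elsewhere in the genome were not searched. Losses of CAST/EiJ reads that carry mismatches to the reference would not be visible in the counts.

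The other miRNA genes with reads within 1 Mb on chromosome 6 differed less between the libraries. Of 6 such genes, 3 had reads. Mir335, 572 kb away in an intron of the imprinted gene Mest, had 1804 and 2489 reads, a log2 ratio of -0.33 (-0.42 to -0.25). Mir29a and Mir29b-1, members of a family that represses collagen messages, lie 893 kb away. Mir29a had 42989 and 103945 reads, a log2 ratio of 0.47 (0.46 to 0.49), and Mir29b-1 had 42 and 238 reads, a log2 ratio of 1.70 (1.23 to 2.21). All 3 intervals lie below that of Mir183 (3.23 to 4.47), but Mir183 was chosen for its high ratio and most genes lie below it. Among 245 genes whose counts summed to 100 or more, 4 outside the cluster reached the ratio of Mir183.

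The distance between the log2 ratios of Mir182 and Mir183 is set beside that in other miRNA clusters as a description, since the members were chosen by these ratios. Clusters were taken as genes on the same strand with neighbours up to 10 kb apart, and members needed counts that summed to 100 or more, which left out Mir96. Mir182 and Mir183 passed this filter only through replicate 2, where they were high. In 36 clusters with more than 1 such gene, the median distance between the highest and the lowest log2 ratio was 0.71, against 1.43 for Mir182 and Mir183. The distance was larger in 3 clusters. They were Mir141 and Mir200c (2.70), the cluster of Mir99b, Mirlet7e and Mir125a (1.76), and a cluster of 11 genes from Mir379 to Mir369 (1.59). Clusters with more genes have more room for a wide distance. Of the 25 clusters with 2 such genes, Mir141 and Mir200c was the one that exceeded it. In the column that counts both strands together, 5 of 31 clusters exceeded the distance of Mir182 and Mir183, which was then 1.31.

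The epithelial markers were uneven. This list held Mir200a, Mir200b, Mir429, Mir200c, Mir141, Mir205 and Mir203, of which the miR-200 genes are known to repress Zeb1 and Zeb2 and to maintain the epithelial state. All 7 had reads in both libraries, and their sum was 298 CPM in replicate 1 and 3874 CPM in replicate 2. The 3 genes past a log2 ratio of 1 were Mir205 with 7 and 10372 reads, Mir200c with 251 and 8728, and Mir141 with 18 and 96. Of all 424 genes tested, 17.7% passed that ratio. Mir205 passed the filter of 10 reads only through replicate 2, where it was high. Mir203, a keratinocyte miRNA, had 457 and 1068 reads, a log2 ratio of 0.43. Mir200b had 100 and 114 reads, Mir429 59 and 64, and Mir200a 14 and 29, with log2 ratios of -0.61 (-1.01 to -0.21), -0.68 (-1.21 to -0.15) and 0.25. The median log2 ratio of the list was 0.43, beside 0.07 for all genes tested. The part of epithelial RNA in the levels of the cluster was not tested.

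Within each library the cluster was also set against single epithelial genes. Per 100 reads of Mir200c, the 3 members had 12.7 reads in replicate 1 (8.54 to 18.5) and 13.4 in replicate 2 (12.6 to 14.2), a difference smaller than counting error. Per 100 reads of Mir141, the neighbour of Mir200c, they had 178 (96.8 to 336) and 1215 (986 to 1512). Mir200c and Mir141 themselves changed proportion, with 13.9 reads of Mir200c per read of Mir141 in replicate 1 (8.64 to 23.9) and 90.9 in replicate 2 (74.4 to 112). Per 100 reads of Mir200a, Mir200b and Mir429 they had 18.5 (12.3 to 27.1) and 563 (485 to 656). Per 100 reads of Mir205 they had 457 (198 to 1227) and 11.2 (10.6 to 11.9), because Mir205 differed more between the libraries than the cluster did. Per 100 reads of Mir203 they had 7.002 (4.73 to 10.03) and 109 (100 to 119). These ratios also derive from the library difference and are descriptions.

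**Figure D4:**
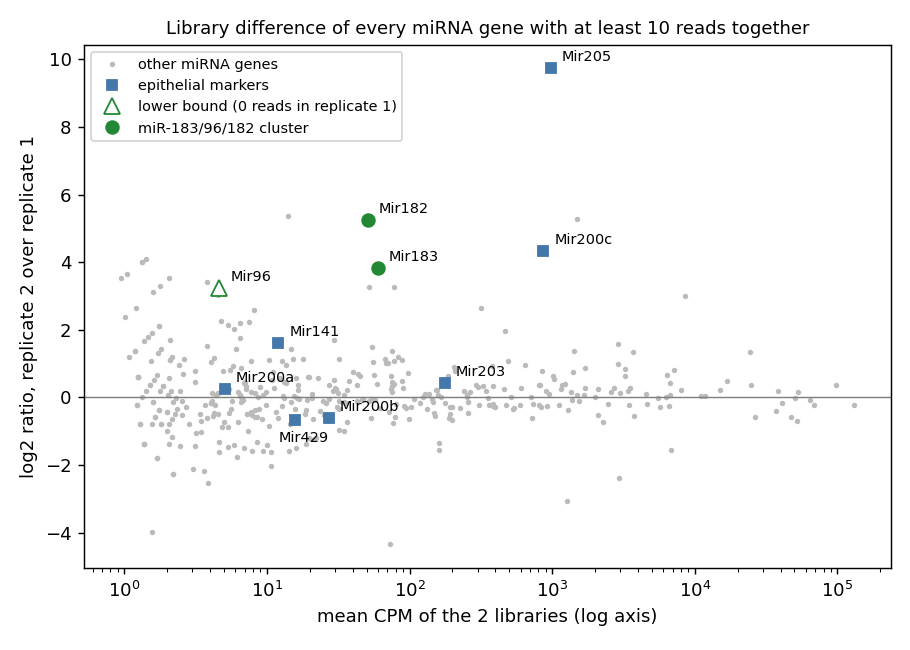
Log2 ratio of replicate 2 over replicate 1 against mean CPM (log axis) for the 424 miRNA genes whose 2 counts summed to 10 or more. The cluster (green) and Mir205 and Mir200c (blue squares) lie above most genes, while Mir200a and Mir203 lie slightly above 0 and Mir200b and Mir429 below it. The open triangle is the lower bound for Mir96, and 0.5 reads stand for a count of 0 in the other genes.

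Other lists differed less between the libraries, and 1 differed in the opposite direction. Of the ciliated epithelium list, 3 of 5 genes had reads, Mir449b and Mir449c had none, and the sum was 33.3 and 125 CPM. Most of that difference was Mir34c, with 30 and 500 reads. Of the neuron list, 5 of 9 genes had reads, and the sum was 67.2 and 113 CPM, led by Mir137 with 109 and 396 reads. The 3 Mir124a genes, which define neurons, were at 0, but they make the same mature strand, and such reads were left out of the gene counts. Reads mapped to several places were left out for every list, and the effect on the sums was not tested. The neuroendocrine list, with reads at 4 of 4 genes, had 27.0 and 50.7 CPM, of which Mir375 had 34 and 130 reads.

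Blood cell markers were mixed. Leukocyte markers had 6560 and 7240 CPM, with reads at all 5 matched genes of 6. Mir155 (9572 and 19067 reads), Mir150 (8634 and 16461) and Mir223 (431 and 875) had log2 ratios of 0.20, 0.13 and 0.22, while Mir142 (1277 and 1848) had -0.27 and Mir146b (8 and 10) -0.48. Red blood cell markers summed to 8201 and 2542 CPM in replicates 1 and 2, with Mir451a at 14883 and 5009 reads and Mir144 at 6879 and 1432. The third gene of that list, Mir486, which muscle also makes, had 3144 and 6994 reads, a log2 ratio of 0.35 (0.29 to 0.42). Heart muscle markers, all 8 with reads, had 10844 and 14812 CPM, with reads mapped to several places left out. Unmapped reads made up 19.4% of all reads in replicate 1 and 34.3% in replicate 2. The part of these differences in the levels of the cluster was not tested.

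**Figure D5:**
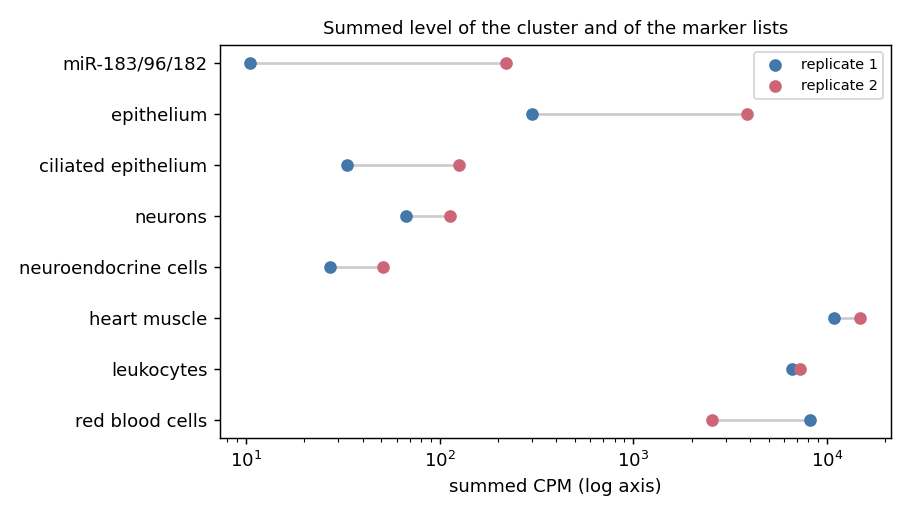
Summed CPM (log axis) of the 3 members and of each marker list in replicate 1 (blue) and replicate 2 (red). The cluster and the epithelial list differ most between the libraries, and red blood cell markers are the list that is lower in replicate 2.

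Likeness to the cluster was measured as the distance of a gene's log2 ratio from that of Mir183, over the 2 libraries, among 245 genes whose counts summed to 100 or more. The 5 nearest genes outside the cluster were Mir200c (log2 ratio 4.32), Mir26a-1 (3.27), Mir34c (3.26), Mir21a (3.0) and Mir222 (2.64). Mir26a-1 has a near-identical copy, so its count is uncertain. In the same set, 4 genes outside the cluster had a log2 ratio at or above that of Mir183. Besides Mir200c these were Mir31 (5.28, with 228 and 15421 reads), Mir135b (5.37, with 2 and 144 reads) and Mir205 (9.73). Mir183, Mir26a-1, Mir34c, Mir135b and Mir205 passed the filter of 100 reads only through replicate 2, where they were high. With 2 libraries, likeness means only a similar ratio, and the genes lie on chromosomes 1, 4, 6, 9, 11 and X.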

How the data were processed

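Small RNA of under 30 (size range per the labels, no unit stated) was sequenced from total RNA of 2 heart libraries. For each library the authors deposited a table of raw read counts by miRNA gene, assigned to GENCODE M21 genes on mm10 per the text deposited beside the tables. No aligner or counter is named in the sources used here. Reads mapped to several places (40.7% and 32.5% of all reads in replicates 1 and 2) and the other summary lines were kept out of gene counts and library sizes. The column for 1 strand that held 79.5% of the stranded miRNA reads in each library was used as the sense column. Reads in the other column can match the sense reads of another gene. In replicate 1, Mir126b had 258854 reads there, beside 258891 sense reads of Mir126a. Mir30f had 21865 reads there, the same as the sense reads of Mir30e. The 79.5% is therefore not a measure of how many reads lie on the wrong strand.

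All 2202 gene IDs matched GENCODE. Counts were scaled to CPM. Ratios carry exact Clopper-Pearson intervals and levels exact Poisson intervals. With 1 group no test was made. The ratio and interval code was tested on simulated data. The members, gene lists and rules were chosen with earlier results of these data known. Named genes were the members, miRNA genes within 1 Mb with reads, genes sharing a seed, up to 4 leading genes of each marker list (others of a list named here were chosen after their values were seen), the 5 genes nearest to Mir183 in ratio and those at or above it. Mir146a was not matched by name. Alternatives were TMM scaling (edgeR 4.0.16), DESeq2 1.42.0 size factors, other denominators, the column for both strands, other filters and leaving out each library. Python 3.11.15 with scipy 1.17.1 was used.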

Additional observations from a re-analysis of the deposited data

How the results depend on the processing

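The log2 ratios of Mir182 and Mir183 stayed inside their counting intervals under every scaling and count column that was run, from 5.00 to 5.29 for Mir182 and from 3.57 to 3.86 for Mir183. With 0.5 reads put for its count of 0, Mir96 had 5.82, and with 1 read put there 4.82, so its value depends on that choice and the report gives bounds. TMM moved every log2 ratio by -0.03, DESeq2 size factors by -0.02, all reads as the denominator by -0.25 and the addition of reads mapped to several places by 0.04. Counts of genes past a ratio depended on the filter, which also sets how many genes are compared. With no filter 161 of 2202 genes reached a log2 ratio of 1, and with at least 100 reads 33 of 245 did, against 75 of 424. With all reads as the denominator 53 of the 424 genes did. For a log2 ratio of 3 the count was 8 of 245 with at least 100 reads, against 19 of 424. Clusters with a wider distance than that of the Mir182 cluster numbered 8 of 49 with at least 10 reads and 5 of 31 in the column for both strands, against 3 of 36. The filter of 10 reads brings in Mir96. The distance of the Mir182 cluster was then 1.998 instead of 1.43, a value that rests on the 0.5 reads put for 0.

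Other denominators lowered every level, as means of both libraries. Per 1000000 of all reads, Mir182 had 13.9, Mir183 16.3 and Mir96 1.25, against 51.3, 59.7 and 4.64 CPM. Marker lists whose libraries lay close together moved by more than their SD, which the size of that SD decides. Per 1000000 of all reads they were 26.0 for neurons, 11.2 for neuroendocrine cells, 3738 for heart muscle and 2029 for leukocytes. With reads mapped to several places added to the denominator they were 40.5, 17.5, 5750 and 3088. Without the most abundant member they were 34.8, 20.96, 5659 and 3520 CPM. In the column for both strands, heart muscle had 17257 and leukocytes 8783 CPM, and red blood cell markers dropped to 1709 from 5372 CPM. The main values were 90.2, 38.9, 12828 and 6900 CPM. Leaving out either library leaves the other library's value, which the levels above give. No paired analysis was possible because there is 1 group. The 0 and 8 reads of Mir96 and Mir182 in replicate 1 limit every ratio that uses them.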
